A study of Bos taurus with 16 samples.

Results

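The genes described here are 5 members of the follicular plasminogen system and of the tissue inhibitors of metalloproteinases (TIMPs): PLAT, PLAUR, SERPINE2, TIMP2 and TIMP3. They were chosen by name, as the genes of this system that are best known from the ovarian follicle, and 7 genes were named in all. PLAU, which encodes urokinase, and TIMP1 belong to the same set and were not analysed here. The 5 genes are set against the 20629 features counted across the series.

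The series sequenced poly(A) RNA from bovine granulosa cells, the somatic cells that line the ovarian follicle and make oestradiol. The cells were aspirated from the dominant follicle of lactating Holstein cows at 63 ± 3 days after calving, in a cohort of 45 cows that were in a programme to synchronise ovulation. The 16 libraries comprise 7 labelled treatment and 9 labelled control, and the title places the question in the period after recovery from uterine disease. The labels give neither what treatment stands for nor which cow a library came from, and their tissue field reads blood in both groups. The p-values below therefore measure the spread between libraries only, which may be partly technical.

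Plasminogen is a circulating zymogen that enters follicular fluid. PLAT, the tissue-type activator, and PLAU, which acts on the cell surface when bound to its receptor PLAUR, cleave it to plasmin, a broad serine protease, and SERPINE2 (protease nexin-1) inhibits both activators, plasmin and thrombin. Plasmin can in turn activate matrix metalloproteinases, which TIMPs inhibit, and both systems take part in remodelling the follicle wall around ovulation.

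The libraries were of different kinds, and all values below are given by kind. INHA, which encodes the alpha subunit of inhibin and marks granulosa cells, was above 1000 CPM (counts scaled to 1000000 per library) in 9 libraries, at 1759 to 3041 CPM, and these are called granulosa-rich (treatment replicates 4, 5, 6 and 7, and control replicates 2, 3, 4, 7 and 8). It was under 200 CPM in the other 7, at 0.404 to 111 CPM, and these are called leukocyte-rich (treatment replicates 1, 2 and 3, and control replicates 1, 5, 6 and 9). The summed level of 10 pan-leukocyte markers was 17.8 to 991 CPM in granulosa-rich libraries and 5319 to 7800 CPM in leukocyte-rich libraries. The summed level of 18 granulosa markers was 25222 to 121786 CPM in granulosa-rich libraries and 86.5 to 5061 CPM in leukocyte-rich libraries, the highest of these being treatment replicate 1. The leukocyte-rich libraries thus go against the protocols' description as granulosa cells, and the granulosa-rich ones against the tissue field. Neither kind is a group of the study. Total counts ran from 8111862 to 14348753 per library, at which 3 counts correspond to 0.212 to 0.375 CPM.

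The 5 genes fell into 3 patterns across the kinds. SERPINE2 was abundant in each granulosa-rich library and low in each leukocyte-rich one, PLAUR was the reverse, and PLAT, TIMP2 and TIMP3 had overlapping ranges. SERPINE2 thus lay among the 6.1% of 9653 features tested whose CPM range was wholly higher in granulosa-rich libraries, and PLAUR among the 11.6% whose range was wholly lower. Because the kinds were defined from INHA in these same libraries, the levels by kind are a description with no test. In such bulk RNA, fewer cells of a type and less RNA per cell cannot be told apart.

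**Figure D1:**
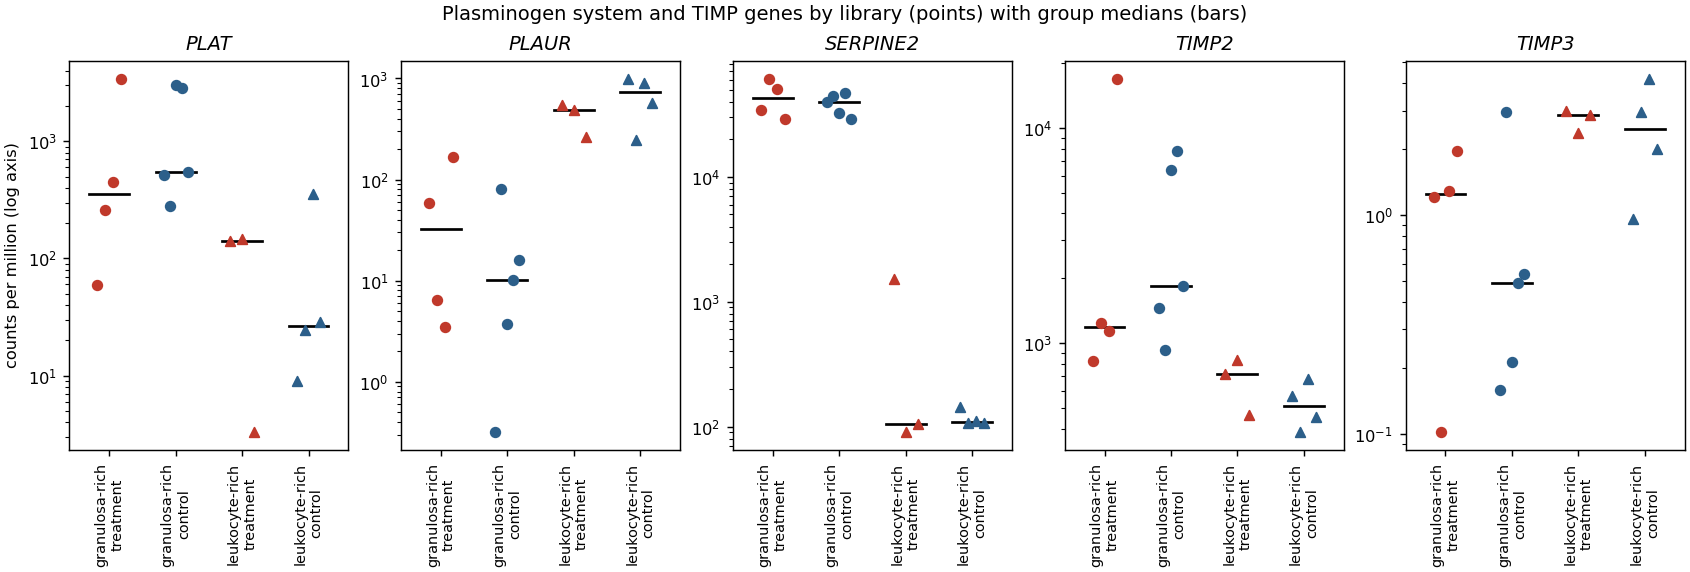
CPM of each gene on a log axis, 1 point per library, in 4 columns by kind of library and label (4 granulosa-rich treatment, 5 granulosa-rich control, 3 leukocyte-rich treatment and 4 leukocyte-rich control), with bars at the group medians. The kinds are fully apart for SERPINE2 and PLAUR, while treatment and control points overlap within each kind for all 5 genes.

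PLAT is the activator of the set, and its messenger RNA rises in granulosa cells of rat and cow when the luteinising hormone surge reaches the follicle. In granulosa-rich treatment libraries it stood at 58.8, 259.9, 447 and 3417 CPM (replicates 4, 5, 6 and 7), and in granulosa-rich control libraries at 513, 283, 3000.5, 2872 and 552 CPM (replicates 2, 3, 4, 7 and 8). Treatment replicate 7 and control replicates 4 and 7 were thus far above the other 6 granulosa-rich libraries, none of which exceeded 552 CPM, and treatment replicate 4 was the lowest. In leukocyte-rich treatment libraries PLAT was 141, 146 and 3.29 CPM (replicates 1, 2 and 3), and in leukocyte-rich control libraries 8.99, 24.4, 355 and 28.5 CPM (replicates 1, 5, 6 and 9).

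Treatment and control overlapped for PLAT in both kinds. The log2 fold change, treatment over control, was −0.85 ± 1.14 (SE) in granulosa-rich libraries, with an adjusted p of 0.988 by edgeR's quasi-likelihood test with Benjamini-Hochberg adjustment. The spread within a label was larger than this difference: PLAT differed 58.1-fold between the highest and lowest granulosa-rich treatment library and 10.6-fold among the granulosa-rich controls. In the leukocyte-rich libraries the log2 fold change was −0.17 ± 1.49 (adjusted p 0.9996, the same test). Without control replicate 6 it was 2.20 ± 1.17, so its sign changed when that library was left out. Without treatment replicate 7 the granulosa-rich value was −2.87 ± 1.10, with an adjusted p of 0.686 by the same test.

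The 3 leukocyte-rich libraries with the most PLAT also held the most of a list of 10 theca and stroma markers. Those markers summed to 7856 and 11019.8 CPM in treatment replicates 1 and 2 and to 2321 CPM in control replicate 6, against 401 to 1806 CPM in the other 4. In leukocyte-rich libraries most of the list's RNA was from the collagen genes COL1A1, COL1A2 and COL3A1. The theca genes on the list went the other way: CYP17A1 and INSL3 reached at most 13.2 and 3.11 CPM there. Their medians in granulosa-rich libraries were 339 and 78.7 CPM. MMP2, a gelatinase made by stromal cells, was also highest in the same libraries, at 277, 286 and 200.1 CPM in those 3 and 6.41 to 72.6 CPM in the other 4. Genes not particular to stroma were highest there too. MMP9, a gelatinase of leukocytes, stood at 1377, 1238 and 3785 CPM in those 3 and 10.5 to 368 CPM in the other 4. MMP12, another metalloproteinase, stood at 1311, 1803 and 338 CPM against 8.75 to 162 CPM. THBS1, a matrix protein, stood at 345, 200 and 859 CPM against 7.30 to 43.7 CPM. The part of stromal or other cells in the leukocyte-rich PLAT values was not tested.

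PLAUR is the receptor that holds urokinase at the cell surface and is abundant on monocytes and macrophages. In granulosa-rich treatment libraries it stood at 58.0, 6.41, 3.46 and 169 CPM (replicates 4, 5, 6 and 7), and in granulosa-rich control libraries at 0.317, 79.8, 3.75, 10.2 and 15.9 CPM (replicates 2, 3, 4, 7 and 8). In leukocyte-rich treatment libraries it was 544, 486 and 264 CPM (replicates 1, 2 and 3), and in leukocyte-rich control libraries 993, 247, 911 and 570.2 CPM (replicates 1, 5, 6 and 9). The highest granulosa-rich library therefore remained below the lowest leukocyte-rich one, and the median of 10.2 CPM in granulosa-rich libraries compares with 544 CPM in leukocyte-rich libraries.

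Within the granulosa-rich libraries PLAUR spanned a 531-fold range, and the lowest value, in control replicate 2, rested on 4 counts. CD14, a monocyte and macrophage receptor, was also lowest in that library, at 5.32 CPM, and stood at 332 CPM in treatment replicate 4 and 221 CPM in control replicate 3, the libraries next highest in PLAUR after treatment replicate 7. Treatment replicate 7 departed from this: its CD14 was 53.8 CPM, and it held 3.13 PLAUR counts per CD14 count, against 0.0597 to 0.421 in the other 8 granulosa-rich libraries and 0.0664 to 0.338 in the leukocyte-rich ones. Against PTPRC, which encodes the pan-leukocyte antigen CD45, it did not stand apart from the leukocyte-rich libraries. Its 4.36 PLAUR counts per PTPRC count lay inside their range of 0.839 to 7.70, treatment replicate 4 held 2.39, and the other 7 granulosa-rich libraries held 0.0356 to 0.814. The 4 measured neutrophil markers summed to 178 CPM in treatment replicate 7, the highest of its kind, against 0.22 to 111 CPM in the other 8. Most of that sum was S100A8 alone, at 171 CPM, so it does not show the list to be high as a set. Epithelial markers summed to 2285 CPM in the same library, against 24.3 to 3843 CPM over all granulosa-rich libraries. The part of neutrophils or epithelial cells was not tested.

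The log2 fold change of PLAUR, treatment over control, was 1.37 ± 1.28 in granulosa-rich libraries (adjusted p 0.983, edgeR's quasi-likelihood test) and −0.68 ± 0.49 in leukocyte-rich libraries (adjusted p 0.9996, same test). In the granulosa-rich libraries all 8 tested members of a monocyte and macrophage list also had values above 0, with a median log2 fold change of 1.58 and 0 past the adjusted threshold. That list summed to 365 to 1876 CPM in granulosa-rich treatment libraries and 23.3 to 742 CPM in granulosa-rich control libraries, where CD163 and C1QB were at 0 in each. Direction was not particular to that list. In the same comparison 9 of 9 tested pan-leukocyte genes were above 0 (median 0.57) and 7 of 8 T and NK cell genes (median 0.62). For B and plasma cell genes it was 3 of 5, and for neutrophil genes 1 of 2. The part of any of these cells in the PLAUR value was not tested. Without treatment replicate 7 the granulosa-rich value was −0.08 ± 1.31, and without control replicate 3 it was 2.68 ± 1.31.

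**Figure D2:**
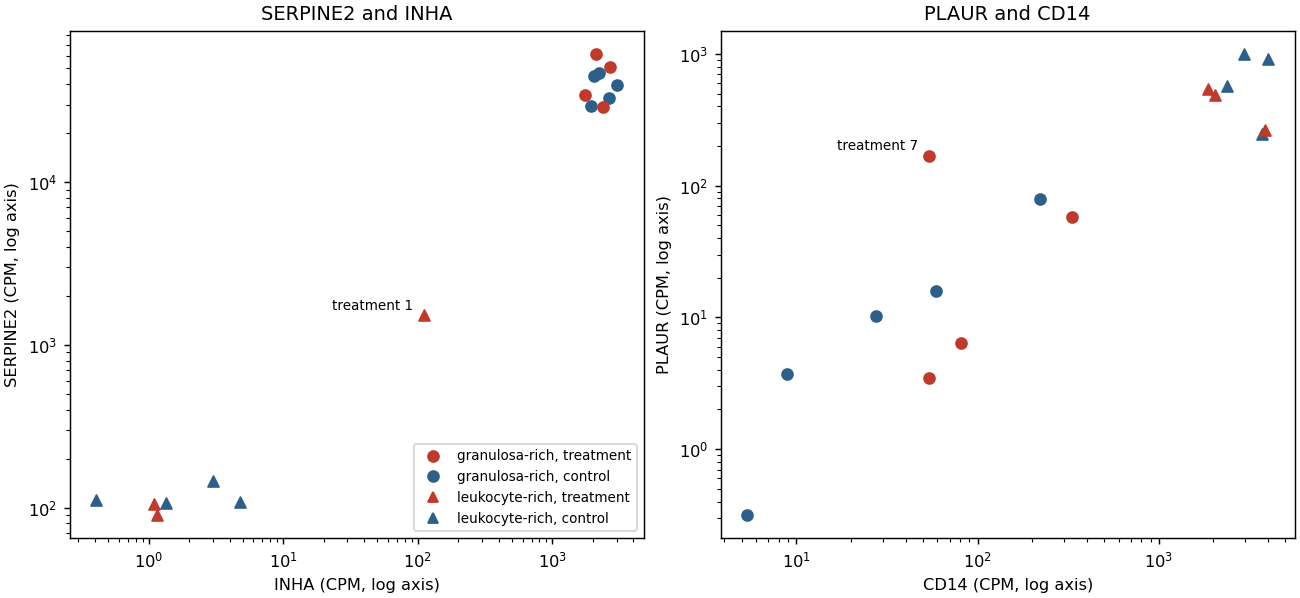
Left, SERPINE2 against INHA, and right, PLAUR against CD14, in CPM on log axes for each of the 16 libraries (circles, granulosa-rich; triangles, leukocyte-rich; red, treatment; blue, control). Treatment replicate 1 lies between the kinds in SERPINE2 (1528 CPM) and INHA (111 CPM), and treatment replicate 7 lies above the other granulosa-rich libraries in PLAUR at its CD14 level of 53.8 CPM.

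SERPINE2, the inhibitor of the set, is a secreted serpin that bovine granulosa cells of growing follicles are known to make. In granulosa-rich treatment libraries it stood at 34224, 61133, 50895 and 28906 CPM (replicates 4, 5, 6 and 7), and in granulosa-rich control libraries at 39813, 44655, 32765, 46746 and 29223 CPM (replicates 2, 3, 4, 7 and 8). This was 2.89 to 6.11% of all counts in a granulosa-rich library, and the highest value was only 2.11 times the lowest. It was the steadiest of the 5 genes there: the SD of its log2 CPM over the 9 libraries was 0.38, against 1.42 to 2.70 for the other 4 genes.

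In leukocyte-rich treatment libraries SERPINE2 was 1528, 90.3 and 106 CPM (replicates 1, 2 and 3), and in leukocyte-rich control libraries 145, 106, 111 and 108 CPM (replicates 1, 5, 6 and 9). The median in granulosa-rich libraries was 369 times that in leukocyte-rich libraries. Treatment replicate 1 stood apart within its kind, and it also had the highest INHA of the leukocyte-rich libraries. Its ratio of SERPINE2 to INHA counts, 13.7, lay inside the range of the granulosa-rich libraries, 12.1 to 29.0. The other 6 leukocyte-rich libraries ran from 22.7 to 276, with 5 of them above that range. Those 6 ratios rested on only 5 to 41 INHA counts, against 1002 in treatment replicate 1.

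Treatment and control did not differ detectably in SERPINE2 in granulosa-rich libraries, with a mean of 43789 ± 14881 CPM in treatment (SD, n = 4) and 38640.3 ± 7524 CPM in control (SD, n = 5). The log2 fold change was −0.0025 ± 0.36 (adjusted p 0.999, edgeR's quasi-likelihood test). With library size alone as scaling it was 0.18, on the other side of 0. In leukocyte-rich libraries it was 2.25 ± 0.95, with an unadjusted p of 0.0485 and an adjusted p of 0.9996 by the same edgeR test, and without treatment replicate 1 it was −0.24 ± 0.22. In the same libraries 13 of 16 tested granulosa markers had values above 0, with a median of 1.16. The granulosa markers summed to 5061 CPM in treatment replicate 1 but to 419 and 86.5 CPM in treatment replicates 2 and 3. In the leukocyte-rich controls they summed to 145 to 846 CPM. The part of granulosa cells in the SERPINE2 value was not tested. The 2 labels' SERPINE2 values overlapped there, with treatment replicate 2 the lowest of the 7.

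TIMP2 inhibits metalloproteinases and also bridges MMP14 and the proform of MMP2 at the cell surface, a step in MMP2 activation. In granulosa-rich treatment libraries it stood at 822, 1237, 1134 and 16916 CPM (replicates 4, 5, 6 and 7), and in granulosa-rich control libraries at 1452, 929.8, 6349, 7776 and 1843 CPM (replicates 2, 3, 4, 7 and 8). The same 3 libraries that were high in PLAT were high here, and treatment replicate 7 alone held 1.69% of its counts in TIMP2. In leukocyte-rich treatment libraries TIMP2 was 719, 833 and 464 CPM (replicates 1, 2 and 3), and in leukocyte-rich control libraries 565, 385, 678 and 453 CPM (replicates 1, 5, 6 and 9).

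The leukocyte-rich libraries were thus close together in TIMP2, within a 2.17-fold range, while the granulosa-rich ones covered a 20.6-fold range. The overlap between kinds rested on treatment replicate 2 (833 CPM) and treatment replicate 4 (822 CPM). The log2 fold change, treatment over control, was 0.07 ± 1.04 in granulosa-rich libraries (adjusted p 0.995, edgeR's quasi-likelihood test) and 0.35 ± 0.26 in leukocyte-rich libraries (adjusted p 0.9996, same test). Without treatment replicate 7 the granulosa-rich value was −2.14 ± 0.86, with an adjusted p of 0.704 by the same test.

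TIMP3, which binds to the extracellular matrix and also inhibits ADAM proteases, was near the limit of counting, with 302 counts over all 16 libraries. In granulosa-rich treatment libraries it stood at 1.21, 0.102, 1.29 and 1.97 CPM (replicates 4, 5, 6 and 7), and in granulosa-rich control libraries at 0.159, 2.95, 0.212, 0.486 and 0.540 CPM (replicates 2, 3, 4, 7 and 8). Treatment replicate 5 rested on 1 count, and control replicates 2 and 4 on 2 and 3 counts. In leukocyte-rich treatment libraries TIMP3 was 3.00, 2.38 and 2.87 CPM (replicates 1, 2 and 3), and in leukocyte-rich control libraries 0.958, 2.96, 4.20 and 2.00 CPM (replicates 1, 5, 6 and 9).

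The leukocyte-rich median of 2.87 CPM compares with 0.540 CPM in granulosa-rich libraries, and the ranges overlapped. The log2 fold change, treatment over control, was 0.28 ± 0.95 in granulosa-rich libraries (adjusted p 0.988, edgeR's quasi-likelihood test) and 0.12 ± 0.51 in leukocyte-rich libraries (adjusted p 0.9996, same test). A difference between labels was not detected, and the part of the low counts in this was not tested.

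Over all 16 libraries, treatment against control gave log2 fold changes of −0.80 ± 1.29 for PLAT, −0.55 ± 1.22 for PLAUR, 0.06 ± 1.44 for SERPINE2, 0.11 ± 0.96 for TIMP2 and 0.16 ± 0.63 for TIMP3. The adjusted p was 0.9999 for each by edgeR's quasi-likelihood test. For PLAT, DESeq2 at its default settings gave −2.60 ± 1.00 (unadjusted p 0.00906, adjusted p 1.0). Those settings replace outlying counts in groups of this size, so the value need not rest on all counts as given. With DESeq2's size factors as scaling, edgeR gave −0.81. With TMM scaling edgeR gave −2.71 without treatment replicate 7, −0.31 without control replicate 4 and −0.07 without control replicate 7. For PLAUR, edgeR's value was −0.09 without control replicate 1, −0.16 without control replicate 6, and −0.94 and −0.86 without treatment replicates 1 and 2. All 5 genes passed the filter on low counts in each comparison, and 0 of 5 passed an adjusted p under 0.05 over the 16 libraries, in the granulosa-rich ones or in the leukocyte-rich ones. The share of features past that threshold was 0% in each comparison, of 9653, 9272 and 9912 features tested by edgeR.

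At an unadjusted p under 0.05 edgeR called 163 features (1.69%) over the 16 libraries, 433 (4.67%) in granulosa-rich libraries and 259 (2.61%) in leukocyte-rich libraries, while DESeq2 called 0, 27 and 0 at an adjusted p under 0.05. SERPINE2 in leukocyte-rich libraries was the 1 member under an unadjusted 0.05. The treatment and control ranges did not overlap for 0.0104% of features over the 16 libraries, 1.73% in granulosa-rich and 3.83% in leukocyte-rich libraries, and 0 of the 5 genes were among them. In each of these comparisons 3 of the 5 genes had a fold change above 0 and 2 below, and their median log2 fold changes were 0.06, 0.07 and 0.12, beside 0.01, 0.04 and 0.01 over all features tested.

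The difference of the treatment effect between kinds, granulosa-rich minus leukocyte-rich, was tested as an interaction. It was −0.65 ± 1.96 for PLAT, 2.15 ± 1.67 for PLAUR, −2.21 ± 0.96 for SERPINE2, −0.26 ± 1.34 for TIMP2 and 0.22 ± 1.17 for TIMP3, on the log2 scale. SERPINE2 had an unadjusted p of 0.0361 and an adjusted p of 0.911 by edgeR's quasi-likelihood test, and 0 of the 5 genes passed. Over all features that test called 0% at an adjusted p under 0.05 and 609 of 11468 (5.31%) at an unadjusted p under 0.05.

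**Figure D3:**
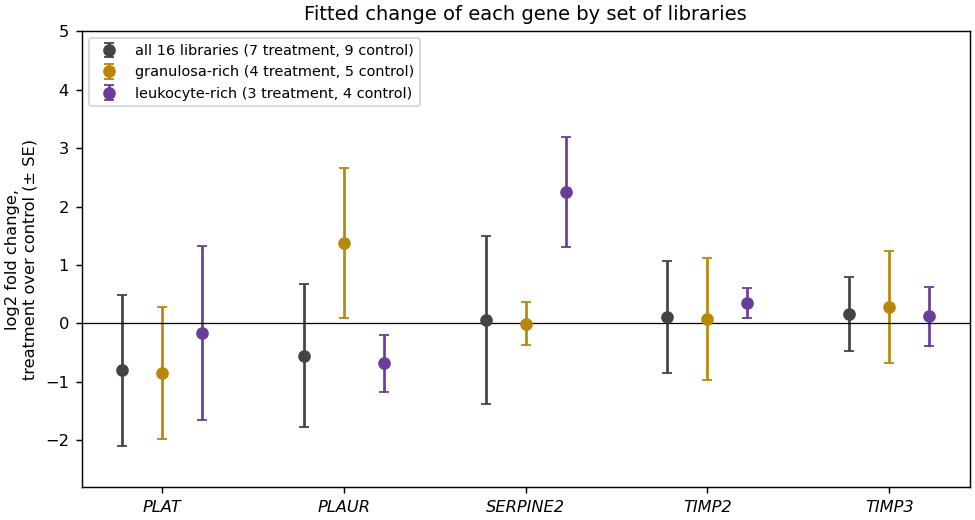
Log2 fold change, treatment over control, with its standard error, for each gene fitted over all 16 libraries, the 9 granulosa-rich and the 7 leukocyte-rich libraries. The bars reach or cross 0 for most fits, and the value farthest from 0 is SERPINE2 in leukocyte-rich libraries (2.25 ± 0.95), which rests on treatment replicate 1.

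PLAT and TIMP2 varied together over the granulosa-rich libraries. All 10 pairs of the 5 genes were compared in each kind, 20 relations in all, with log2 CPM and an exact permutation test of the pairings, a choice made after the values had been seen. For PLAT and TIMP2 over the 9 granulosa-rich libraries Pearson's r was 0.92 (exact permutation p 5.787e-05, adjusted over 20 relations 0.00116) and Spearman's rho 0.93 (exact permutation p 0.00075, adjusted 0.0150). Without treatment replicates 4 and 7, the libraries farthest from the median of PLAT, r was 0.98 over 7 libraries.

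Because 3 libraries lay at 2872 CPM of PLAT or more and the rest at 552 CPM or less, r was also taken within the 6 lower libraries, where it was 0.79 (exact permutation p 0.0528) and rho 0.83 (exact permutation p 0.0583). Over the 7 leukocyte-rich libraries PLAT and TIMP2 had an r of 0.69 (exact permutation p 0.0919, rho 0.61). No other relation passed after adjustment. The next, PLAUR and TIMP3 in granulosa-rich libraries, had an r of 0.77 (exact permutation p 0.0162, adjusted 0.162) and rested on TIMP3 values of few counts.

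PLAT and its inhibitor SERPINE2 did not vary together detectably: r was −0.27 over the granulosa-rich libraries (exact permutation p 0.481, rho −0.57) and 0.28 over the leukocyte-rich ones (exact permutation p 0.657, rho 0.11), and with trimmed-mean scaling the granulosa-rich r was 0.22. Since SERPINE2 was steady there, the ratio of PLAT to SERPINE2 counts followed PLAT. It ran from 0.00172 in treatment replicate 4 to 0.118 in treatment replicate 7 among granulosa-rich treatment libraries, and from 0.00633 in control replicate 3 to 0.0916 in control replicate 4 among granulosa-rich controls. The labels overlapped in this ratio.

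**Figure D4:**
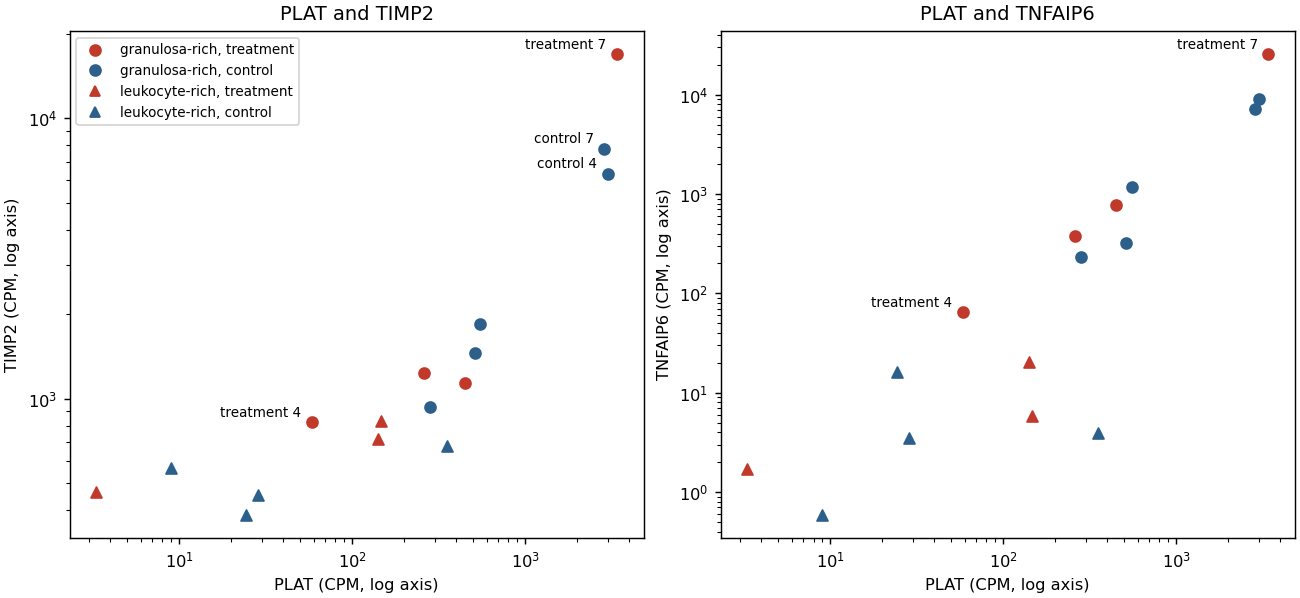
TIMP2 (left) and TNFAIP6 (right) against PLAT in CPM on log axes for the 16 libraries (circles, granulosa-rich; triangles, leukocyte-rich; red, treatment; blue, control). Treatment replicate 7 and control replicates 4 and 7 sit together at 2872 to 3417 CPM of PLAT, with the highest TIMP2 and TNFAIP6. TNFAIP6 was picked for its correlation with PLAT in the granulosa-rich libraries.

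The genes most like each member were taken as those with the highest Pearson's r of log2 CPM over the 9 granulosa-rich libraries, among 4610 genes, and are given as a description. For PLAT these were NT5E (0.97), TNFAIP6 (0.97) and RGN (0.94). TNFAIP6 encodes a hyaluronan-binding protein of the expanding cumulus matrix, and NT5E the ectoenzyme that forms adenosine. For TIMP2 they were AKAP4 (0.98), SCARB1 (0.98), the receptor for high-density lipoprotein, and SLC39A8 (0.98), a zinc transporter.

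TNFAIP6 stood at 64.4, 375, 781 and 25541 CPM in granulosa-rich treatment libraries and at 322, 233, 9088, 7198 and 1176 CPM in granulosa-rich control libraries, in the same replicate order as above. The 3 libraries high in PLAT and TIMP2 were the highest. TNFAIP6 was picked for its correlation with PLAT in these same libraries, so this is no separate observation. A list of genes known to respond to the luteinising hormone surge, which holds TNFAIP6 and ADAMTS1 and of which 8 of 11 were measured, summed to 27313 CPM in treatment replicate 7, 12097 CPM in control replicate 4 and 10812 CPM in control replicate 7, against 121 to 1538 CPM in the other 6. That sum is mostly TNFAIP6 and ADAMTS1 and adds no independent support. AREG, an epidermal growth factor ligand on the same list, did not follow in all of them: it stood at 939.9 CPM in treatment replicate 7 but at 12.2 and 24.5 CPM in control replicates 4 and 7, below the 78.9 CPM of control replicate 3. The part of follicle stage in the PLAT and TIMP2 values was not tested.

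For PLAUR the most alike genes were CXCL16 (0.98), SAT1 (0.94) and ETS2 (0.94), and for TIMP3 they were CD3E (0.96), a chain of the T cell receptor complex, STK10 (0.95) and FAS (0.95). CXCL16, a chemokine that macrophages make, stood at 2.86 to 96.9 CPM in granulosa-rich and 171 to 729 CPM in leukocyte-rich libraries. CD3E stood at 2.06 to 70.5 CPM in granulosa-rich and 41.6 to 389 CPM in leukocyte-rich libraries. For SERPINE2, which varied least, the values were lower: UBE2E2 (0.88), RETSAT (0.82) and SCP2 (0.81).

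Of 30 further genes of the plasminogen system, 26 had counts, and 0 passed an adjusted p under 0.05 in any comparison. In granulosa-rich libraries 13 were tested, with 8 above and 5 below 0 and a median log2 fold change of 0.02, and in leukocyte-rich libraries 17 were tested, with 12 above and 5 below 0 and a median of 0.30. ENO1, a glycolytic enzyme that also binds plasminogen at the cell surface, had the lowest p of the list in granulosa-rich libraries. It stood at 580.04, 229, 551 and 257 CPM in granulosa-rich treatment libraries and at 1045, 861, 449, 618 and 667 CPM in granulosa-rich controls, with a log2 fold change of −1.06 ± 0.32 (unadjusted p 0.00692, adjusted p 0.983, edgeR's quasi-likelihood test). Its ranges overlapped.

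The plasminogen-binding genes ANXA2 and S100A10, which encode the partners of the annexin A2 complex, had log2 fold changes of 0.02 ± 0.49 and 0.00 ± 0.58 in granulosa-rich libraries. S100A10 was lower in each granulosa-rich library (24.8 to 246 CPM) than in any leukocyte-rich one (498 to 1148 CPM). ITGAM and ITGB2, the chains of an integrin of myeloid cells that binds PLAUR, were likewise lower, ITGAM at 0.555 to 140.01 CPM in granulosa-rich and 403 to 1189 CPM in leukocyte-rich libraries. Of the 16 plasminogen-system genes tested over all libraries, 5 had a range wholly lower in granulosa-rich libraries (PLGRKT, S100A10, A2M, ITGAM and ITGB2) and 1 wholly higher (SERPINF2, the main inhibitor of plasmin), beside 11.6% and 6.1% of all 9653 features. HGFAC, a serine protease that activates hepatocyte growth factor, had the lowest p of the list in leukocyte-rich libraries, at 3.30 ± 1.53 (adjusted p 0.9996, edgeR's quasi-likelihood test). It stood at 6.12, 26.0 and 0.169 CPM in treatment and 0.162 to 3.50 CPM in control there.

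Of 41 metalloproteinases and their inhibitors and partners, 27 had counts, and again 0 passed an adjusted p under 0.05 in any comparison. In granulosa-rich libraries 17 were tested, with 5 above and 12 below 0 and a median log2 fold change of −0.46, and in leukocyte-rich libraries 18 were tested, with 11 above and 7 below 0 and a median of 0.28. ADAMTS1 and ADAMTS4, proteases that cut proteoglycans such as versican, ran over wide ranges in granulosa-rich libraries, ADAMTS4 at 3.52 to 1616 CPM. ADAMTS1 stood at 32.1, 8.75, 11.9 and 603 CPM in granulosa-rich treatment libraries and at 143, 24.7, 2963, 3564 and 302 CPM in granulosa-rich controls, and its 3 highest libraries were the 3 highest in PLAT. Its log2 fold change was −3.55 ± 1.75 (unadjusted p 0.0688, adjusted p 0.983, edgeR's quasi-likelihood test).

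MMP2, the gelatinase that TIMP2 helps to activate, was scarce in granulosa-rich libraries, at 0.330, 1.53, 0.989 and 2.05 CPM in treatment and 0.317, 21.6, 0.495, 1.86 and 26.4 CPM in control. Its log2 fold change of −2.98 ± 1.26 (unadjusted p 0.0389, adjusted p 0.983, edgeR's quasi-likelihood test) went with control replicates 3 and 8, which also held the most theca and stroma marker RNA of their kind, 2308 and 2958 CPM against 187 to 1105 CPM in the other 7. The part of those cells was not tested. MMP14, the membrane protease that works with TIMP2, stood at 50.8 to 716 CPM in granulosa-rich and 1394 to 4134 CPM in leukocyte-rich libraries, and MMP9, a gelatinase of leukocytes, at 0.159 to 3.36 CPM in granulosa-rich and 10.5 to 3785 CPM in leukocyte-rich libraries. MMP14, MMP9, MMP12, MMP19 and ADAMTS2 were the 5 of 19 tested genes wholly lower in granulosa-rich libraries, and MMP16 and ADAMTS9 the 2 wholly higher, beside the same 11.6% and 6.1% of all features.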

How the data were processed

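For each library the authors deposited raw read counts by RefSeq accession. The tools named in the submitters' processing notes are cutadapt, Bowtie2 and SAMtools. Tool versions, build, annotation, strand setting and the handling of multi-mapped reads were not given in the sources used here. Of 27306 accessions, 133 are genomic records without a gene, 0.712 to 1.92% of counts per library, and were dropped. Gene names came from the RefSeq table for ARS-UCD2.0, which matched 18973 of 27173 transcript accessions. Counts were summed per gene and divided by transcript counts for CPM, and log2 CPM used a prior count of 1. Each of the 5 genes rests on 1 accession. No pair of libraries was a duplicate (highest r of log2 CPM 0.95).

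Treatment was tested against control with edgeR 4.0.16 in R 4.3.3 (robust quasi-likelihood fit, TMM scaling, filterByExpr by group, Benjamini-Hochberg adjustment over all features tested), and the SE is the log2 fold change over the square root of F. Alternatives were DESeq2 1.42.0, other scalings, no filter, curated accessions, a replicate block, the kind of library as a covariate and each library left out. From each pathway list the text names the most abundant genes per kind (4) and those with the lowest p per kind (3), with a choice among them. SERPINF2, PLGRKT, A2M, MMP16, MMP19, ADAMTS2 and ADAMTS9 and the context genes CD14, TNFAIP6 and AREG were chosen after their values were seen. The same holds for the marker genes S100A8, CYP17A1, INSL3, COL1A1, COL1A2 and COL3A1. The members and gene lists were chosen with earlier results of these data known. Counting limits cover counting error only, since reads carry no molecular identifiers.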

Additional observations from a re-analysis of the deposited data

Results flagged for a closer look

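Of 35 groups of 4 to 10 libraries examined for a library far from the others on the log2 scale, 5 held one. The criterion is set to flag about 1 group in 20 by chance, but these groups share libraries and some mix the kinds. The 5 are therefore not weighed against that rate. SERPINE2 in treatment replicate 1 (1528 CPM) was far above the other 6 leukocyte-rich libraries. SERPINE2 in control replicate 1 (145 CPM) was far above the other 3 leukocyte-rich control libraries, which held 106 to 111 CPM. TIMP2 in treatment replicate 7 (16916 CPM) was far above the other treatment libraries, both among all 7 and among the 4 granulosa-rich ones. TIMP3 in treatment replicate 5 (0.102 CPM, 1 count) was far below the other 6 treatment libraries.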

How the results depend on the processing

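The number of features past an adjusted p under 0.05 stayed at 0 in every setting run apart from DESeq2 in granulosa-rich libraries, which called 27. Of 384 alternative values for single genes and pairs, 345 were counted as the same and 39 changed sign. For tested values, the same means the same direction and side of the threshold. For levels by kind, which had no test, it means the same direction and a shift smaller than the pooled SD. Where a setting gave no adjusted p, direction alone was compared. Over 16 libraries TIMP2 became −0.91 with DESeq2, whose default settings replace outlying counts in groups of this size. It was 0.10 in edgeR with DESeq2's size factors. PLAUR became 0.56 with library kind as a covariate. In granulosa-rich libraries SERPINE2 became 0.0024 with DESeq2's size factors and with DESeq2, 0.18 with library size alone, 0.0019 with no filter and 0.0037 with curated accessions. The interaction of TIMP2 became 0.084 with library size alone. With TMM scaling the granulosa-rich r became 0.22 for PLAT and SERPINE2, 0.12 for SERPINE2 and TIMP2, and 0.0185 for TIMP2 and TIMP3. The cause of these changes was not tested.

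Whether replicate numbers pair the libraries was not settled. Deviations from the mean of each label, taken without regard to kind, correlated at −0.60 to 0.60 between same-numbered libraries. Of 7 pairs 3 were over 0.1, and 0 of 7 libraries correlated best with their own number. These values cannot decide it, because they followed the kind. Numbers 1, 4 and 7, of the same kind in both labels, gave 0.60, 0.31 and 0.44. Numbers 2, 3, 5 and 6, of different kinds, gave values below 0. With the number as a replicate block the count of calls stayed at 0, PLAUR became 1.09 and TIMP2 −0.19 over 16 libraries, and TIMP2 became −1.44 in granulosa-rich libraries. There only numbers 4 and 7 occur in both labels. The label effect in that block fit therefore rests on those libraries alone, and little was left to estimate its spread. With this limit, PLAUR was 3.47 ± 0.47 (adjusted p 0.409, edgeR's quasi-likelihood test) and PLAT −3.23. The calls at an unadjusted p under 0.05 numbered 1022, against 433 without the block. No paired analysis was possible because of a single shared number in the leukocyte-rich libraries.

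With each library left out in turn, log2 fold changes over 16 libraries ran from −2.71 to −0.07 for PLAT, −0.94 to −0.09 for PLAUR, −0.49 to 0.48 for SERPINE2, −1.80 to 0.88 for TIMP2 and −0.0060 to 0.49 for TIMP3. In granulosa-rich libraries they ran from −2.87 to −0.26 for PLAT, −0.081 to 2.68 for PLAUR, −0.34 to 0.28 for SERPINE2, −2.14 to 0.76 for TIMP2 and −0.16 to 0.64 for TIMP3. In leukocyte-rich libraries they ran from −0.59 to 2.20 for PLAT, −0.96 to −0.43 for PLAUR, −0.24 to 2.76 for SERPINE2, 0.19 to 0.51 for TIMP2 and −0.15 to 0.50 for TIMP3.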

Other observations

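Treatment replicate 7, the library highest in PLAT, PLAUR (among granulosa-rich libraries) and TIMP2, also held more of some other plasminogen-system genes, but not of all. These genes were picked with their values in view. SERPINB2, an inhibitor of urokinase, was 16.8 CPM there and 0 to 4.38 CPM in the other 8 granulosa-rich libraries. THBS1, a matrix protein that binds plasminogen, was 646 CPM there and 1.59 to 159 CPM in the others. ENO1 at 257 CPM and S100A10 at 70.2 CPM were inside the range of the other 8. The further genes of the plasminogen system summed to 2834 CPM in treatment replicate 7 and 2801 CPM in control replicate 3. CYP19A1, the aromatase that makes oestradiol, was 276 CPM in treatment replicate 7 and 8439 to 28576 CPM in the other 8 granulosa-rich libraries.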
